A study of Homo sapiens with 5 samples.

Results

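The regions described here are the peaks that the authors' annotation placed in the promoter flanks, from 1 to 3 kb to either side of a transcript start. They were taken from the 4 narrow-peak lists of the series by the annotation classes for 1 to 2 kb and 2 to 3 kb, and rows with the same interval within a list were merged. The rule gave 813 flank peaks of 11195 in FOXM1 ChIP, 748 of 7801 in LC3 ChIP, 1496 of 15402 in EBSS evDNA and 2461 of 28993 in control evDNA. In all, 5518 of 63391 peaks, or 8.70%, were flank peaks.

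The series profiled DNA of A549 cells, an established human lung adenocarcinoma line, and its question, by its title, is the role of the transcription factor FOXM1 in which chromatin DNA reaches extracellular vesicles. FOXM1 ChIP and LC3 ChIP are chromatin immunoprecipitations with an antibody against each protein, from formaldehyde-fixed cells grown with 10% serum. EBSS evDNA is DNA of extracellular vesicles (evDNA) from cells kept for 3 days in EBSS, a balanced salt solution without amino acids or serum, and control evDNA is DNA of vesicles from cells not given EBSS, with cultures for both vesicle groups kept without serum. Each group had 1 library from 1 cell line, so no difference between groups could be set against replicate error, and the input sample was not analysed here.

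A gene promoter is the stretch around the transcript start where RNA polymerase and general factors assemble. Active starts sit in open chromatin, and the nucleosomes on both flanks carry marks of active genes and often hold further transcription factor sites. FOXM1 is a forkhead factor that drives genes of the G2 and M phases of the cell cycle, in part through the MuvB complex. LC3 proteins, relatives of ubiquitin, are joined to lipids of the autophagosome membrane, and nuclear LC3 has been described to contact chromatin and the nuclear lamina. Vesicle DNA has no antibody step, so a peak in an evDNA list marks a stretch that was sequenced more than its surroundings.

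Few flank peaks lay over the start of any gene in the RefSeq table of promoter windows used here. This follows largely from the rule, since members lie over 1 kb from the nearest transcript start of the authors' annotation. Of 35116 windows of 300 bases on GRCh38.p14 (250 bases before to 50 after a gene's start), 15 overlapped a flank peak, 2 in FOXM1 ChIP, 5 in LC3 ChIP, 3 in EBSS evDNA and 5 in control evDNA. All but the LINC01473 window in FOXM1 ChIP are starts of a gene listed under another name than the gene the authors gave the peak. A window is shown for each list as an example only, with the bases under the flank peak in capitals. Being gene starts, these windows are not typical of the flanks. The LINC-ADAIN window (chr9:1047893-1048192, plus strand) has 277 bases under the FOXM1 ChIP peak upstream of DMRT2. The FLRT2-AS1 window (chr14:85531610-85531909, minus strand) has 93 bases under the LC3 ChIP peak downstream of the FLRT2 start. The LOC124902289 window (chr9:131093323-131093622, minus strand) has 249 bases under the EBSS evDNA peak upstream of AIF1L. The SPDYE12 window (chr7:74915029-74915328, minus strand) has 299 bases under the control evDNA peak that the authors assigned to SPDYE12P.
LINC-ADAIN: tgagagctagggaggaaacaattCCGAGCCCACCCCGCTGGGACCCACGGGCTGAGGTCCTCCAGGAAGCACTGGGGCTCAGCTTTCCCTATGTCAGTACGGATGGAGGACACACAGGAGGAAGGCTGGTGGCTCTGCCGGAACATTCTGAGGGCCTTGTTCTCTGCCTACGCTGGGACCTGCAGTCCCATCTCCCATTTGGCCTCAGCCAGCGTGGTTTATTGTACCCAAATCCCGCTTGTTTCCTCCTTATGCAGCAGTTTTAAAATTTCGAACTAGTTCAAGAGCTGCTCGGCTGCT
FLRT2-AS1: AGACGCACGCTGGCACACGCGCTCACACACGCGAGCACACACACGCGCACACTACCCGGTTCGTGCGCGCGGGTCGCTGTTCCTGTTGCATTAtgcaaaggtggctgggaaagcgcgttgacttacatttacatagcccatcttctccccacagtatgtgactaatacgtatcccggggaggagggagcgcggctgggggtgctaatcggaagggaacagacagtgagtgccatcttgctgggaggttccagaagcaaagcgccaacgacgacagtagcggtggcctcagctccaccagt
LOC124902289: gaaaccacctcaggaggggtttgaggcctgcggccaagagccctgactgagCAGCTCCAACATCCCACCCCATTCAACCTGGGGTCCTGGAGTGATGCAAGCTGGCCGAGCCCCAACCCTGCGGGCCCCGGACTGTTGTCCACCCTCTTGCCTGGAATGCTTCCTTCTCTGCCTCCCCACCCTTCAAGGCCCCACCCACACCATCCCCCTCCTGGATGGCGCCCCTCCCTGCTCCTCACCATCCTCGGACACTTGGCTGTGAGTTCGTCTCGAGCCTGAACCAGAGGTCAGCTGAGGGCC
SPDYE12: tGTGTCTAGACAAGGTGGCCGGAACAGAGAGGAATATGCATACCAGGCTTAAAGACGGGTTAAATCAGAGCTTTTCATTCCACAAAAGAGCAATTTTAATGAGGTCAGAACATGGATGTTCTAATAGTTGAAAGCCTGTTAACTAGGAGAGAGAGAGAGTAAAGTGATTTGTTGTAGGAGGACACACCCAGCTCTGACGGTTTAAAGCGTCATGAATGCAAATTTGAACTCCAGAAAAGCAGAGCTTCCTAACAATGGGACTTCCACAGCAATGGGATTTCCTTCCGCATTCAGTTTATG
The fold over local background was 3.46 at the LINC-ADAIN window in FOXM1 ChIP and 4.17 at the FLRT2-AS1 window in LC3 ChIP. It was 2.99 at the LOC124902289 window in EBSS evDNA and 2.78 at the SPDYE12 window in control evDNA. None of these 4 peaks had q of at most 0.05. The forkhead core TAAACA, searched on both strands, was in 12.3% of all windows of this length and in none of the 15 windows under flank peaks, which describes these letters in these windows only.

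Flank peaks were weak by the authors' own measures, as were the other peaks of their lists. The median fold of the summit over local background, a value of the authors' peak caller, was 2.89 in FOXM1 ChIP, 3.02 in LC3 ChIP, 2.79 in EBSS evDNA and 2.78 in control evDNA, beside medians for the other peaks of 2.89 in FOXM1 ChIP, 3.03 in LC3 ChIP, 2.79 in EBSS evDNA and 2.84 in control evDNA. The number of fragments at the summit, recovered from each peak's fold and p, had a median of 6 in FOXM1 ChIP, 8 in LC3 ChIP, 9 in EBSS evDNA and 9 in control evDNA, with depths relative to control evDNA of 0.479 for FOXM1 ChIP, 0.762 for LC3 ChIP and 1.01 for EBSS evDNA. List length did not follow depth: the lists held 11195 peaks in FOXM1 ChIP, 7801 in LC3 ChIP, 15402 in EBSS evDNA and 28993 in control evDNA. In FOXM1 ChIP, 18 flank peaks had q of at most 0.05, 2.21% of the flank peaks against 1.97% of all peaks. LC3 ChIP had 32 such flank peaks, 4.28% against 3.78% of all peaks. EBSS evDNA had 140, 9.36% against 9.77% of all peaks, and control evDNA had 323, 13.1% against 13.3% of all peaks. In each list, the 95% interval of the difference between flank peaks and other peaks in this share included 0. All intervals here cover counting error only: exact Clopper-Pearson for shares and normal for differences.

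Peaks just inside and just outside the limits of the rule had folds between 2.27 and 5.05. The flank peaks nearest to the inner limit lay 1001 bp upstream of NIFK in FOXM1 ChIP (fold 2.69), 1002 bp upstream of LINC02153 in LC3 ChIP (3.72), 1003 bp upstream of MIR4477A in EBSS evDNA (2.69) and 1001 bp upstream of EPS8 in control evDNA (2.27). Just inside 1 kb, and so not members, lay peaks at SREBF2-AS1 in LC3 ChIP (3.13), LTN1 in EBSS evDNA (3.49) and STAT5B in control evDNA (2.82). The members nearest to the outer limit were at LINC01866 in FOXM1 ChIP (3.37), RNU1-38P in LC3 ChIP (3.34), AC241644.3 in EBSS evDNA (2.44) and a copy of RF01518 in control evDNA (5.05). Just beyond 3 kb lay peaks at SERPINA1 in FOXM1 ChIP (3.24), DVL1 in LC3 ChIP (2.65), LMX1A in EBSS evDNA (2.83) and AC022893.1 in control evDNA (2.36).

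The flank held 7 to 10% of each list, while the core within 1 kb held 6.10% of FOXM1 ChIP, 28.5% of LC3 ChIP, 9.39% of EBSS evDNA and 9.28% of control evDNA. The flank share was 7.26% of FOXM1 ChIP (95% interval 6.79 to 7.76), 9.59% of LC3 ChIP (8.94 to 10.3), 9.71% of EBSS evDNA (9.25 to 10.2) and 8.49% of control evDNA (8.17 to 8.81). The share in EBSS evDNA was 1.22 percentage points above that in control evDNA (0.658 to 1.79). FOXM1 ChIP was 2.33 points below LC3 ChIP (the difference was -2.33, -3.14 to -1.52). That difference was not seen among peaks nearest to a protein-coding gene, where the flank share was 10.3% in FOXM1 ChIP and 10.6% in LC3 ChIP (difference -0.341, -1.70 to 1.02). The gap between EBSS evDNA and control evDNA was 0.913 points among peaks with q of at most 0.05, with an interval of -0.796 to 2.62.

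**Figure D1:**
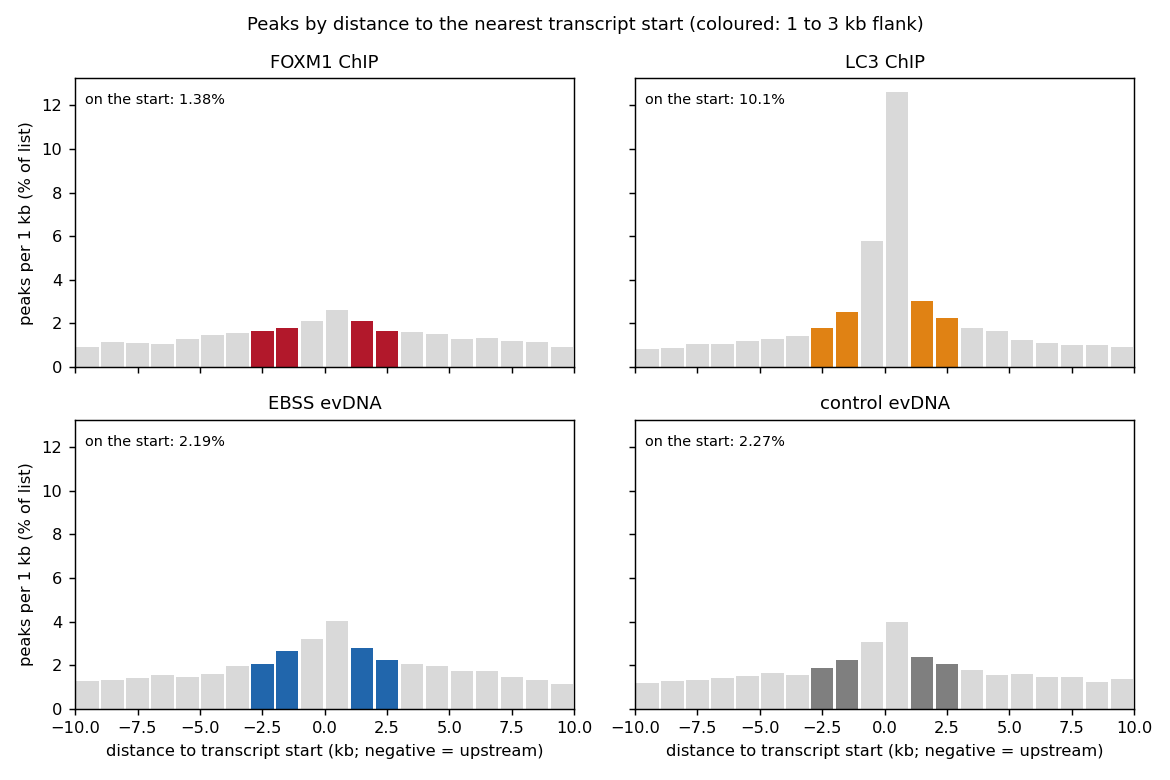
Peaks in each 1 kb band of distance to the nearest transcript start, as a percent of the list (y axis), from 10 kb upstream (negative) to 10 kb downstream (x axis, kb), 1 panel per list; the flank bands are coloured, and peaks that cover the start are given as a number. In LC3 ChIP the flank bands are a shoulder next to a much higher centre, with 5.95 times as many peaks per kb within 1 kb as in the flank, against 1.68 times in FOXM1 ChIP.

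The plot of peaks by distance shows how the flank stands between the core and the gene surroundings. Per kb of distance, peaks within 1 kb of a start outnumbered flank peaks 1.68 times in FOXM1 ChIP, 5.95 times in LC3 ChIP, 1.93 times in EBSS evDNA and 2.19 times in control evDNA. Flank peaks in turn outnumbered peaks at 3 to 10 kb 1.44 times in FOXM1 ChIP, 2.04 times in LC3 ChIP, 1.55 times in EBSS evDNA and 1.46 times in control evDNA. The flank was thus densest, relative to its outer surroundings, in LC3 ChIP, the list with the highest core. The inner band from 1 to 2 kb held 54.0% of the flank peaks in FOXM1 ChIP, 58.2% in LC3 ChIP, 55.8% in EBSS evDNA and 54.1% in control evDNA. Of all peaks in the 3 promoter classes, flank peaks were 54.3% in FOXM1 ChIP, 25.2% in LC3 ChIP, 50.8% in EBSS evDNA and 47.8% in control evDNA.

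LC3 ChIP flank peaks also had another peak of the list nearby more often than the other LC3 ChIP peaks did. Another peak of the same list lay within 2 kb of 12.0% of LC3 ChIP flank peaks, against 7.40% of its other peaks, a difference of 4.63 points (2.22 to 7.04). In FOXM1 ChIP the shares were 2.34% of flank peaks and 3.96% of the others (difference -1.62, -2.73 to -0.518). In EBSS evDNA they were 5.68% and 5.32%, and in control evDNA 8.29% and 8.39%, with intervals of the difference that included 0. A second peak near a flank peak was therefore more frequent than elsewhere in LC3 ChIP and less frequent than elsewhere in FOXM1 ChIP. By the rule flank peaks lie next to the core, which held 28.5% of LC3 ChIP and 6.10% of FOXM1 ChIP. Neither this nor list length was taken into account.

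Flank peaks lay on both sides of the start in nearly equal numbers, with fewer upstream than downstream in each list. Upstream flank peaks were 47.8% in FOXM1 ChIP (44.4 to 51.3), 44.9% in LC3 ChIP (41.3 to 48.6), 48.4% in EBSS evDNA (45.8 to 51.0) and 48.0% in control evDNA (46.0 to 50.0). EBSS evDNA minus control evDNA was 0.407 points (-2.80 to 3.62), and FOXM1 ChIP minus LC3 ChIP was 2.93 points (-2.02 to 7.88). The interval of LC3 ChIP stayed below 50%. The flank in LC3 ChIP was nonetheless closer to even than its own core. Within 1 kb, leaving out peaks that cover the start, 31.5% of LC3 ChIP peaks were upstream, 13.5 points fewer than in its flank (9.17 to 17.8). From 3 to 10 kb the upstream shares were 48.8% in FOXM1 ChIP, 46.8% in LC3 ChIP, 48.2% in EBSS evDNA and 48.5% in control evDNA.

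**Figure D2:**
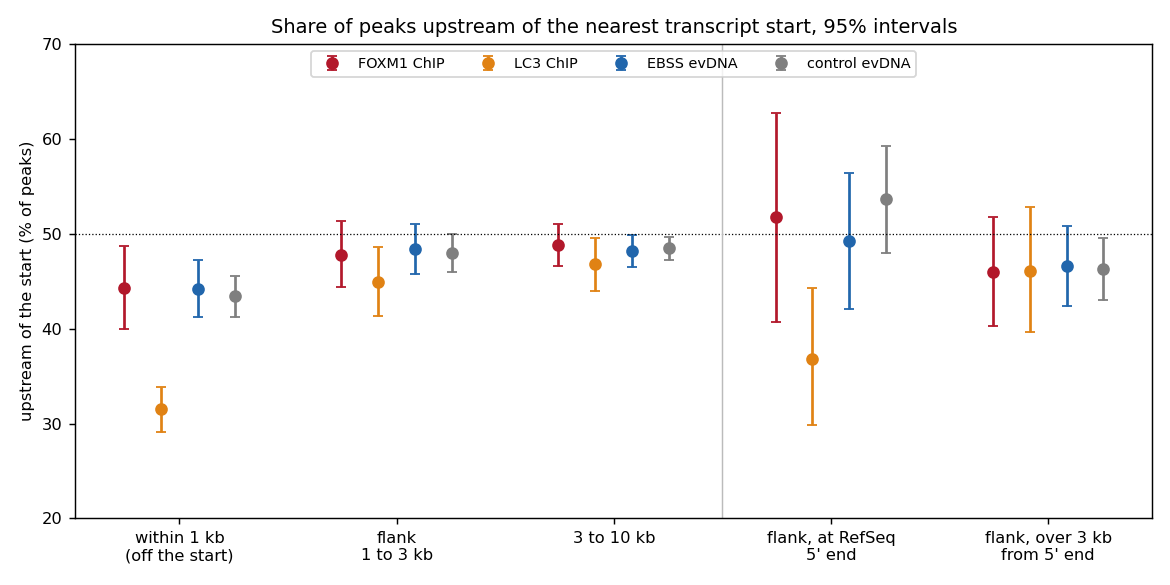
Share of peaks upstream of the nearest transcript start (y axis, percent) with 95% intervals, for 3 distance classes (left of the line) and for flank peaks at protein-coding genes split by their distance to the gene's RefSeq 5' end (right of the line), 1 point per list. LC3 ChIP stands below the other lists within 1 kb (31.5%) and in flanks at the RefSeq 5' end (36.8%).

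The transcript starts of the authors' annotation are often not the 5' end of the gene. The annotation names the nearest start of any transcript, and long genes have many internal transcript starts. For flank peaks at protein-coding genes, the distance to the named gene's 5' end in the RefSeq table was therefore measured as well, a split chosen after the values were seen. Only 85 of 388 such peaks, or 21.9%, lay 1 to 3 kb from that 5' end in FOXM1 ChIP. The counts were 182 of 425 (42.8%) in LC3 ChIP, 197 of 761 (25.9%) in EBSS evDNA and 311 of 1223 (25.4%) in control evDNA. Over 10 kb from the 5' end lay 69.1% of the FOXM1 ChIP peaks, 45.4% of the LC3 ChIP peaks, 57.8% of the EBSS evDNA peaks and 62.6% of the control evDNA peaks. Of peaks within 1 kb of a transcript start, at protein-coding genes, 71.1% lay that far in FOXM1 ChIP, 15.1% in LC3 ChIP, 51.9% in EBSS evDNA and 47.5% in control evDNA. In FOXM1 ChIP this was thus not particular to the flank. LC3 ChIP minus control evDNA was 17.4 points for flank peaks at the 5' end (12.1 to 22.7), FOXM1 ChIP minus LC3 ChIP was -20.9 points (-27.2 to -14.7), and EBSS evDNA minus control evDNA was 0.458 points (-3.50 to 4.41).

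**Figure D3:**
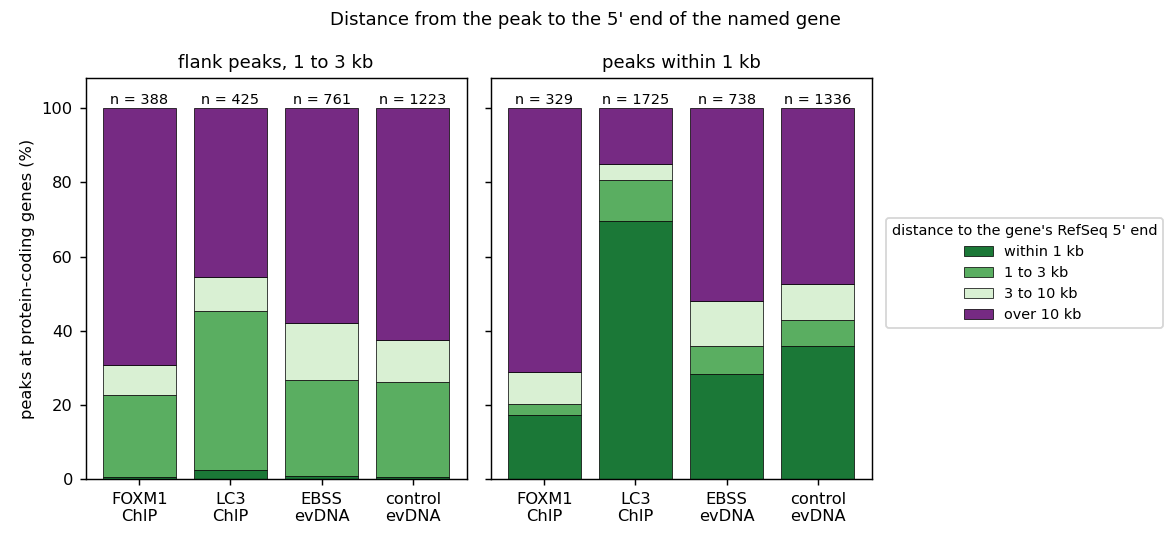
Distance from the peak to the RefSeq 5' end of the protein-coding gene named by the authors (stacked classes, percent of peaks on the y axis), for flank peaks (left) and peaks within 1 kb of a transcript start (right), 1 bar per list with its number of peaks. Most flank peaks of FOXM1 ChIP (69.1%) lie over 10 kb from the 5' end, as do 71.1% of its peaks within 1 kb of a transcript start. Of LC3 ChIP flank peaks, 42.8% lie 1 to 3 kb from the 5' end.

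At the RefSeq 5' ends of protein-coding genes, LC3 ChIP had a lower share of upstream flank peaks than the other 3 lists. The side is still that of the nearest transcript start in the authors' annotation, not of the RefSeq 5' end. Of flank peaks 1 to 3 kb from the RefSeq 5' end, 51.8% were upstream in FOXM1 ChIP (40.7 to 62.7), 36.8% in LC3 ChIP (29.8 to 44.3), 49.2% in EBSS evDNA (42.1 to 56.4) and 53.7% in control evDNA (48.0 to 59.3). LC3 ChIP was 16.9 points below control evDNA (the difference was -16.9, -25.8 to -7.95), and LC3 ChIP minus EBSS evDNA was -12.4 points (-22.3 to -2.53). FOXM1 ChIP was 15.0 points above LC3 ChIP (2.23 to 27.7). Over 3 kb from the 5' end, the upstream share was 46.0% in FOXM1 ChIP, 46.1% in LC3 ChIP, 46.6% in EBSS evDNA and 46.3% in control evDNA. Within LC3 ChIP, the share at the 5' end minus that over 3 kb from it was -9.31 points, with an interval of -18.8 to 0.192. Within control evDNA the same difference was 7.41 points (0.982 to 13.8), toward the upstream side.

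In the vesicle lists, flank peaks at the RefSeq 5' end of protein-coding genes reached q of at most 0.05 more often than those over 3 kb from it. In EBSS evDNA 11.2% of them did so, against 5.20% of those over 3 kb from it (difference 5.97 points, 1.20 to 10.7), with 9.77% over all peaks of the list. In control evDNA the shares were 12.5% and 8.42% (difference 4.12, 0.0217 to 8.23), with 13.3% over all peaks of that list. In FOXM1 ChIP they were 3.53% and 1.33%, and in LC3 ChIP 4.40% and 2.16%, with intervals of the difference that included 0. The highest vesicle folds at the 5' end were at GAGE1 (9.78 in EBSS evDNA, 11.5 in control evDNA) and at TAF11-like genes. These are tandem copies, where reads cannot be placed with certainty. Whether copied genes account for the differences in the vesicle lists was not tested.

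FOXM1 ChIP had the strongest flank peak of the series, and it lay within the FOXM1 gene. The authors assigned it to ITFG2, a subunit of the KICSTOR complex that restrains mTORC1, 1135 bp downstream of a transcript start (chr12:2858423-2859850). Its fold was 182 with 499 fragments at the summit in FOXM1 ChIP, 4.94 with 17 fragments in LC3 ChIP, 6.02 with 70 fragments in EBSS evDNA and 2.03 with 13 fragments in control evDNA. The interval lies in the bodies of both FOXM1 and ITFG2, and the annotated start is 44620 bp inside ITFG2. Its −log10 q was 1006 in FOXM1 ChIP, 3.77 in LC3 ChIP, 28.3 in EBSS evDNA and 0.302 in control evDNA. The place was thus far above its surroundings in FOXM1 ChIP and did not reach q of 0.05 in control evDNA. Its local background was 1.74 fragments in FOXM1 ChIP, 2.65 in LC3 ChIP, 10.8 in EBSS evDNA and 5.91 in control evDNA.

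Of the 17 peaks with a fold of 10 or more in FOXM1 ChIP, 4 were flank peaks, in a list with 7.26% flank peaks. In EBSS evDNA 2 of 64 such peaks were flank peaks (9.71% of the whole list). In control evDNA 3 of 57 were (8.49% of the whole list). In FOXM1 ChIP, GH1, the growth hormone gene, came after ITFG2, with a fold of 14.4 (chr17:63916560-63917440, 1228 bp downstream). A peak of fold 13.0 (chr16:87402924-87403301) was assigned to AC010531.3 and lies in the body of MAP1LC3B, which encodes LC3B. The fourth, of fold 10.3 (chr20:22581861-22583156), was assigned to AL121722.1 and lies in FOXA2, a forkhead factor of endoderm, with peaks of fold 3.54 and 3.28 over it in LC3 ChIP. The GH1 and AC010531.3 peaks had no overlapping peak in the other 3 lists. The next flank peaks at protein-coding genes were near CDHR3, the rhinovirus C receptor, at fold 4.60 (2517 bp upstream), PTH, parathyroid hormone, at 4.48, PLCB2, a phospholipase C, at 4.33 and OR5K4, an olfactory receptor, at 4.33. FOXM1 had a flank peak under its own name in FOXM1 ChIP at fold 4.31 (chr12:2872093-2872410, 1727 bp downstream) and another at 3.65 (chr12:2866205-2866727, 1351 bp upstream), and none under that name in the other lists. LMO2, a transcription cofactor of blood cells, followed at 4.26. Apart from ITFG2, none of these protein-coding flank peaks had an overlapping peak in another list.

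LC3 ChIP had no flank peak of fold 10 or more, and its whole list held 1 peak of that fold. Of its 8 leading flank peaks at protein-coding genes, 5 were downstream of the start, beside 55.1% of all its flank peaks. Among protein-coding genes the highest folds were 5.31 at ANXA8L1, an annexin copy (2297 bp downstream), 5.01 at TMED3, a cargo receptor between endoplasmic reticulum and Golgi (1036 bp downstream), and 4.94 at ITFG2. Then came POTEG, of a primate-specific ankyrin repeat family, at 4.74 (1873 bp upstream), RGMA, a repulsive axon guidance protein, at 4.58 (1557 bp downstream) and PTBP1, a splicing repressor, at 4.55 (1823 bp upstream). NFE2L3, a bZIP transcription factor, had 4.54 (2158 bp downstream), and RMDN2 had 4.40 (1232 bp upstream). At the RefSeq 5' end of protein-coding genes, where 36.8% of LC3 ChIP flank peaks were upstream, 7 of the 8 highest were downstream. This count is too small to set against that share. Among the 8 was FLRT2, a leucine-rich repeat membrane protein, at fold 4.17 with the FLRT2-AS1 window shown above. SQLE, squalene epoxidase of cholesterol synthesis, had 3.75 (1608 bp downstream) with q of at most 0.05. POTEG also had a peak in control evDNA, of fold 3.59. Neither ANXA8L1 nor TMED3, RGMA, PTBP1, NFE2L3, RMDN2 or SQLE had an overlapping peak in FOXM1 ChIP, EBSS evDNA or control evDNA.

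DUX4 and GAGE1 led the protein-coding flank genes in both vesicle lists, and both belong to arrays of near-identical copies, where reads cannot be placed with certainty. At DUX4, a double homeobox factor encoded in tandem repeats, the fold was 1.85 in FOXM1 ChIP, 1.43 in LC3 ChIP, 15.6 in EBSS evDNA and 14.9 in control evDNA (chr4:190179242-190180026 over all lists). The summit there held 184 fragments in FOXM1 ChIP, 218 in LC3 ChIP, 264 in EBSS evDNA and 284 in control evDNA. The local background was 99.0 fragments in FOXM1 ChIP, 153 in LC3 ChIP, 16.0 in EBSS evDNA and 18.2 in control evDNA. GAGE1, a cancer-testis antigen of a tandem family, had a fold of 2.34 in FOXM1 ChIP, 3.57 in LC3 ChIP, 9.78 in EBSS evDNA and 11.5 in control evDNA, 2688 bp upstream in EBSS evDNA. In fold, the 2 vesicle lists were thus alike at these copies and above both immunoprecipitations, and at DUX4 the background differed more between the lists than the summit did. AL391987.6, with a fold of 16.8 in EBSS evDNA and 14.6 in control evDNA, had no peak in either immunoprecipitation.

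TAF11-like genes, tandem copies on chromosome 5 named for a TFIID subunit, gave the next pair of places. A peak named for TAF11L3 in EBSS evDNA (fold 7.90) overlapped the one named for TAF11L4 in control evDNA (6.95), and TAF11L10 had 5.10 in EBSS evDNA and 5.77 in control evDNA. NPIPA8, of the nuclear pore interacting protein copies, had 4.19 in EBSS evDNA and 5.57 in control evDNA. TBC1D3F, a copy of a hominoid-specific gene family, had 4.30 in EBSS evDNA and 4.98 in control evDNA. PPP2R3B, a regulatory subunit of protein phosphatase 2A, had 4.89 in EBSS evDNA and 4.18 in control evDNA. Of the 8 leading protein-coding genes of EBSS evDNA, NUTM2A and GDAP2, both at 4.54, had no overlapping peak in control evDNA. In control evDNA, RICTOR, the defining subunit of mTORC2, at 5.11 (1849 bp upstream of an internal start) and FAM86B2 at 4.76 had none in EBSS evDNA.

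Most flank peaks were in 1 list only, and in EBSS evDNA they overlapped other lists less often than the other peaks did (difference -3.12 points, -4.77 to -1.48). A peak of another list, by at least 1 bp, overlapped 3.69% of FOXM1 ChIP flank peaks (3.81% of all its peaks), 7.22% in LC3 ChIP (5.97%), 10.3% in EBSS evDNA (13.1%) and 7.15% in control evDNA (7.66%). EBSS evDNA flank peaks overlapped control evDNA less often than the other EBSS evDNA peaks did, 9.29% against 12.4% (difference -3.16 points, -4.73 to -1.59). With every list cut to its 7801 strongest peaks, the overlap of EBSS evDNA flank peaks with any list minus that of its other peaks was -1.92 points (-4.37 to 0.541). LC3 ChIP flank peaks overlapped control evDNA more often than the other LC3 ChIP peaks, 5.08% against 3.19% (difference 1.89, 0.264 to 3.52). Without scaffolds and high-background places that difference was 1.35 points, with an interval of -0.141 to 2.85. Control evDNA flank peaks likewise overlapped LC3 ChIP more often than the other control evDNA peaks, 1.50% against 0.844% (difference 0.659, 0.166 to 1.15), and without those places the difference was 0.574 points (0.100 to 1.05). The partner was itself a flank peak for 36 of the 38 LC3 ChIP overlaps and 35 of the 37 control evDNA overlaps, so both differences rest on much the same pairs. For FOXM1 ChIP, the intervals of the difference between flank and other peaks included 0 against each of the other 3 lists.

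**Figure D4:**
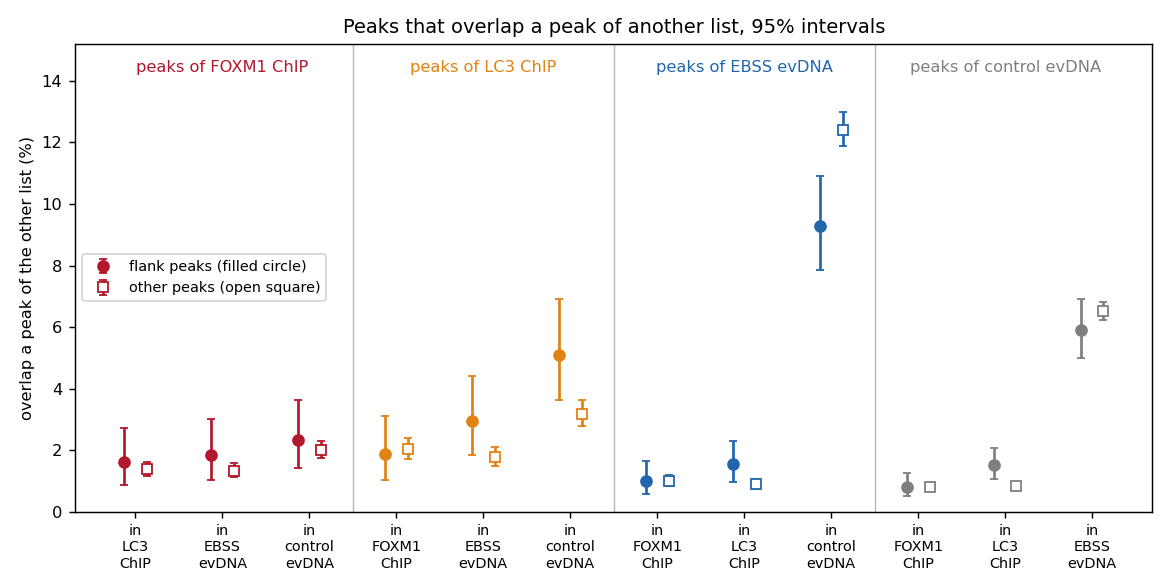
Share of peaks that overlap a peak of another list by at least 1 bp (y axis, percent, 95% intervals), for flank peaks (filled circles) and all other peaks (open squares) of each list against each other list (x axis). EBSS evDNA flank peaks lie below the other EBSS evDNA peaks in their overlap with control evDNA (9.29% against 12.4%), and LC3 ChIP flank peaks lie above the other LC3 ChIP peaks (5.08% against 3.19%).

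Over the lists, 5104 stretches with a flank peak were in 1 list, 188 in 2 lists, 14 in 3 lists and 6 in all 4 lists. The 6 places in all 4 lists were at ITFG2, DUX4, DUX4L18, GAGE1, REXO1L3P and AC084121.13. REXO1L3P, a pseudogene of a tandem exonuclease-like family, had folds of 2.85 in FOXM1 ChIP, 1.89 in LC3 ChIP, 3.91 in EBSS evDNA and 3.16 in control evDNA. Of the 20 places in 3 or 4 lists, 8 were on placed chromosomes with a background below 10 fragments in every list. This filter did not remove copied sequence, since it kept GAGE1 and REXO1L8P, both of tandem families. Among these 8 were DNM1P47, a dynamin pseudogene, with folds of 4.93 in LC3 ChIP, 4.54 in EBSS evDNA and 4.64 in control evDNA, and ARHGAP42P5, also a pseudogene, with 4.48 in FOXM1 ChIP, 2.92 in LC3 ChIP and 4.24 in control evDNA. RNA5-8SN2, a copy of the 5.8S ribosomal RNA gene on a scaffold, had 5.41 in LC3 ChIP, 5.94 in EBSS evDNA and 8.35 in control evDNA. RNU2-1, the U2 spliceosomal RNA, had 2.40 in LC3 ChIP, 5.59 in EBSS evDNA and 5.92 in control evDNA.

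**Figure D5:**
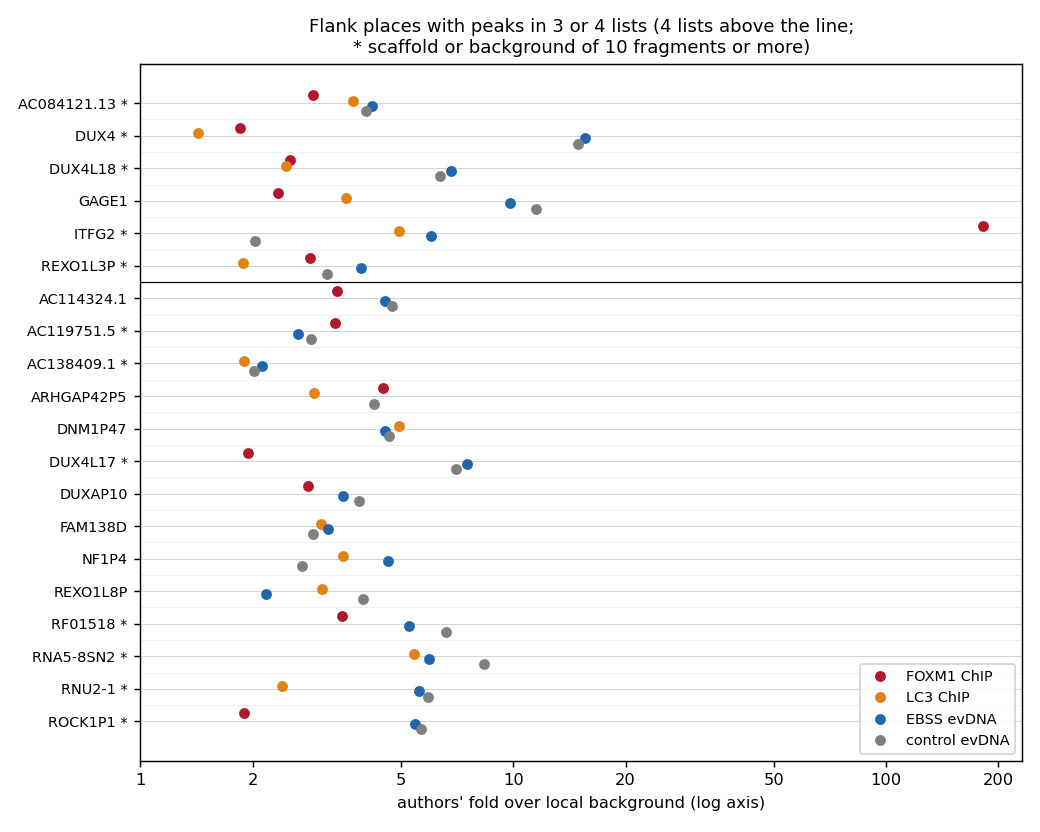
Authors' fold over local background (x axis, log scale) at the 20 places with a flank peak and peaks in 3 or 4 lists (rows; 4 lists above the line), 1 point per list that has a peak there; a star marks scaffolds or a background of 10 fragments or more. ITFG2 is the only row in which FOXM1 ChIP is far to the right (182), and at DUX4 and GAGE1 both vesicle lists stand right of both immunoprecipitations.

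Counted by gene, flank peaks named 788 genes in FOXM1 ChIP, 720 in LC3 ChIP, 1444 in EBSS evDNA and 2318 in control evDNA. Of the 20050 protein-coding genes of the reference table, 366 (1.83%) had a flank peak in FOXM1 ChIP, 404 (2.01%) in LC3 ChIP, 729 (3.64%) in EBSS evDNA and 1129 (5.63%) in control evDNA. In total, 4253 genes were in 1 list, 442 in 2, 35 in 3 and 7 in all 4. FOXM1 ChIP and LC3 ChIP shared 35 genes (4.44% and 4.86% of each), and EBSS evDNA and control evDNA shared 250 (17.3% and 10.8%). FOXM1 ChIP shared 98 genes with control evDNA (12.4% and 4.23%), and LC3 ChIP shared 94 with it (13.1% and 4.06%). Naming the same gene did not mean the same place. In 36.7% of the 589 cases of a gene shared by a pair of lists, flank peaks of both lists overlapped, from 17.3% for FOXM1 ChIP with control evDNA to 47.2% for EBSS evDNA with control evDNA.

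Genes named in 2 or 3 lists were long. The median length of protein-coding genes was 311 kb for the 20 in 3 lists and 123 kb for the 245 in 2 lists, but 29.6 kb for the 4 in all lists, against 60.9 kb for those in 1 list and 24.1 kb for all protein-coding genes. RBMS3, an RNA-binding protein gene, had flank peaks in all 4 lists, of fold 3.14 in FOXM1 ChIP, 3.63 and 3.30 in LC3 ChIP, 3.46 and 2.77 in EBSS evDNA and 3.29 and 2.74 in control evDNA, and no pair of them overlapped. MACROD2, a mono-ADP-ribosylhydrolase gene over a common fragile site, had 3.16 in FOXM1 ChIP, 3.17 in LC3 ChIP, no flank peak in EBSS evDNA and 3.07 and 2.44 in control evDNA. ERBB4, a receptor tyrosine kinase, had 2.89 in FOXM1 ChIP, 2.65 in LC3 ChIP and 2.41 in control evDNA. FOXP1, a forkhead factor, had 2.76 in LC3 ChIP, 2.42 in EBSS evDNA and 3.83 in control evDNA. CDK13, a kinase of RNA polymerase II, had 3.37 in FOXM1 ChIP and 3.03 in LC3 ChIP near the same internal start, and 2.78 in control evDNA elsewhere in the gene. The FOXM1 ChIP flank genes had a median length of 116 kb, against 68.5 kb in LC3 ChIP, 57.2 kb in EBSS evDNA and 68.9 kb in control evDNA.

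Most genes with a flank peak had no peak at the core, within 1 kb of a start, but core peaks were more frequent among them than among all protein-coding genes. Of genes with a flank peak, 4.31% in FOXM1 ChIP, 14.2% in LC3 ChIP, 6.02% in EBSS evDNA and 11.0% in control evDNA also had a peak within 1 kb of a start in the same list. Among protein-coding genes the shares were 5.74% in FOXM1 ChIP, 19.8% in LC3 ChIP, 6.30% in EBSS evDNA and 12.7% in control evDNA. Over all protein-coding genes a peak within 1 kb was found at 1.55% in FOXM1 ChIP, 7.88% in LC3 ChIP, 3.53% in EBSS evDNA and 6.13% in control evDNA. Gene length was not taken into account. Counted by flank peak at protein-coding genes, genes with a core peak were rarer at the RefSeq 5' end than over 3 kb from it. The shares were 2.35% and 8.33% in FOXM1 ChIP (difference -5.98, -10.5 to -1.49) and 17.6% and 24.1% in LC3 ChIP (-6.56, -14.4 to 1.25). They were 5.58% and 7.17% in EBSS evDNA (-1.58, -5.44 to 2.27) and 9.97% and 14.6% in control evDNA (-4.65, -8.70 to -0.601). Flank peaks lay within the body of a protein-coding gene in 57.1% of cases in FOXM1 ChIP, 60.6% in LC3 ChIP, 55.1% in EBSS evDNA and 56.2% in control evDNA, which follows in part from the rule. Downstream flank peaks did so in 62.0% of cases in FOXM1 ChIP, 70.1% in LC3 ChIP, 60.1% in EBSS evDNA and 61.8% in control evDNA. Upstream ones did so in 51.7% in FOXM1 ChIP, 48.8% in LC3 ChIP, 49.7% in EBSS evDNA and 50.1% in control evDNA.

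Pathway lists linked to the study's question had 0 to 2 genes with a flank peak in each peak list. Over all protein-coding genes, 1.83% had one in FOXM1 ChIP, 2.01% in LC3 ChIP, 3.64% in EBSS evDNA and 5.63% in control evDNA, and counts this small are given as a description, not as a difference from those shares. In the gene lists used here, those with q of at most 0.05 were at FOXM1 in FOXM1 ChIP, IMMP2L in EBSS evDNA and RICTOR in control evDNA. Of 35 FOXM1 and G2/M genes, 1 had a flank peak in FOXM1 ChIP (FOXM1 itself), 0 in LC3 ChIP, 1 in EBSS evDNA and 2 in control evDNA. MKI67, the proliferation marker, had 3.14 in EBSS evDNA, and in control evDNA BUB1B, a spindle checkpoint kinase, had 2.74 (2626 bp upstream) and TOP2A, a topoisomerase, 2.52. Of 10 MuvB and B-MYB complex genes, RBL2, a pocket protein, had a flank peak of 3.55 in EBSS evDNA and of 2.49 in control evDNA, at different starts.

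Of 32 autophagy genes, 2 had a flank peak in FOXM1 ChIP, 0 in LC3 ChIP, 2 in EBSS evDNA and 2 in control evDNA, with no gene in more than 1 list. That is 6.25% of the list in FOXM1 ChIP, EBSS evDNA and control evDNA, beside 1.83% of all protein-coding genes in FOXM1 ChIP, 3.64% in EBSS evDNA and 5.63% in control evDNA. In FOXM1 ChIP these were RB1CC1, a scaffold of the ULK1 complex, at fold 3.59 and ATG4B, the protease that processes LC3, at 3.37. In EBSS evDNA they were ATG7, the E1-like enzyme of LC3 lipidation, at 2.19 and AMBRA1, a Beclin 1 partner, at 2.11. In control evDNA they were ATG5, part of the LC3 conjugation complex, at 2.78 and UVRAG, of the same kinase complex as Beclin 1, at 2.41. No flank peak was named for MAP1LC3A, MAP1LC3B, MAP1LC3B2 or MAP1LC3C in any list. Of 20 lysosome and TFEB genes, MITF, a TFEB relative, had 3.34 in LC3 ChIP and LAMP1, a lysosomal membrane protein, had 2.96 in control evDNA.

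Of 22 mTOR signalling genes, RICTOR (5.11 and 2.98) and MTOR (2.19, 1512 bp upstream) had flank peaks in control evDNA, 9.09% of the list beside 5.63% of all protein-coding genes, and none had one in the other 3 lists. Of 25 vesicle biogenesis genes, SMPD3, neutral sphingomyelinase 2, had 2.09 in EBSS evDNA and RAB35, a GTPase of exosome release, had 2.99 in control evDNA, 1 gene of the list in each, beside 3.64% of all protein-coding genes in EBSS evDNA and 5.63% in control evDNA. DNASE1L3, a secreted nuclease that degrades vesicle DNA, had 2.89 in control evDNA, alone of 13 genes of cytosolic DNA sensing. YWHAZ was the single housekeeping gene of 20, with 2.96 in LC3 ChIP. Of 14 long genes at common fragile sites, 3 had a flank peak in FOXM1 ChIP (MACROD2, NRXN3 and CTNNA3), 1 in LC3 ChIP (MACROD2), 1 in EBSS evDNA (IMMP2L at 3.84) and 2 in control evDNA (MACROD2 and CTNNA3). These are 21.4% of the list in FOXM1 ChIP, 7.14% in LC3 ChIP, 7.14% in EBSS evDNA and 14.3% in control evDNA, beside 1.83% of all protein-coding genes in FOXM1 ChIP, 2.01% in LC3 ChIP, 3.64% in EBSS evDNA and 5.63% in control evDNA. Gene length was not taken into account, although protein-coding FOXM1 ChIP flank genes had a median of 116 kb, against 24.1 kb for all. In FOXM1 ChIP the folds were 3.16 at MACROD2, 2.89 at NRXN3 and 2.41 at CTNNA3, with no q of at most 0.05. None of 16 nuclear lamina and envelope genes and none of 20 lung epithelial genes had one in any list.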

How the data were processed

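FOXM1 ChIP, LC3 ChIP, EBSS evDNA and control evDNA of A549 cells were each given as 1 list of narrow peaks on hg38, with 1 library per group. Per the submitters' processing notes, the tools included MACS3 3.0.0a6, BWA, ChIPseeker, fastp 0.20.0 and FastQC 0.11.8. The control given to the peak caller, and which libraries had single-end or paired-end reads, are not given in the sources used here. Per the file headers, the deposited values are the fold of the summit over local background (a ratio), −log10 p, −log10 q and a score, the −log10 p times 10 without its decimals, besides the signed distance to the nearest transcript start. In the EBSS evDNA list both −log10 columns have damaged deposited headings and were told by their position and values. Peak numbers skipped in the deposited lists were 81 in FOXM1 ChIP, 33 in LC3 ChIP, 243 in EBSS evDNA and 270 in control evDNA, so the lists may not be whole.

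Rows with the same interval were merged (5559 flank rows gave 5518 peaks). Fragments at the summit and local background were recovered from the authors' fold and p under a Poisson model, and relative depth from the lowest backgrounds. Total read counts were not used here. Gene names were matched to the RefSeq table (GRCh38.p14), which holds 1 interval per gene: 72.8% of flank peaks matched in FOXM1 ChIP, 76.7% in LC3 ChIP, 72.7% in EBSS evDNA and 72.5% in control evDNA. Distances to a RefSeq 5' end use that interval and the authors' strand. Shares have exact Clopper-Pearson 95% intervals and differences have normal ones. With 1 library per group, no test between conditions was made. Scripts used Python 3.11.15, pandas 2.3.3 and scipy 1.17.1 and were tested on simulated data. Alternatives changed the peak threshold, list length, chromosomes, merging, gene class, flank width and overlap. Genes were named by rule: the 8 protein-coding genes of highest fold per list, genes in 3 or more lists, the 3 strongest overlaps per pair of lists, up to 3 members per gene list, and FOXM1 and the MAP1LC3 genes. SQLE, FLRT2, AC010531.3 and the 4 promoter windows were chosen after their values were seen, as was the split by RefSeq 5' end. Some peaks that these rules select are not reported here. The members and gene lists were chosen with earlier results of these data known.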

Additional observations from a re-analysis of the deposited data

How the results depend on the processing

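Over 166 alternatives of 36 results, 120 left a share within its interval, a count or ratio within 1.5 times, or a difference on its side of the call (its interval included 0 or did not). Another 39 moved the value, 5 brought 0 into the interval of a difference, 2 took 0 out of it, and none turned round a difference whose interval excluded 0. Where a change is given, its cause was not tested. Among peaks with q of at most 0.05, the flank share was 8.14% in FOXM1 ChIP and 10.8% in LC3 ChIP, EBSS evDNA minus control evDNA was 0.913 points and FOXM1 ChIP minus LC3 ChIP -2.70 points (-7.76 to 2.36). There the upstream share was 55.6% in FOXM1 ChIP (10 of 18 peaks, 30.8 to 78.5) and 52.9% in EBSS evDNA. The overlap of flank peaks with another list was 50.0% in FOXM1 ChIP (9 of 18 peaks, 26.0 to 74.0) and 31.2% in LC3 ChIP. It was 35.7% in EBSS evDNA and 17.3% in control evDNA. Flank minus other peaks in this overlap was 15.5 points in FOXM1 ChIP (-8.49 to 39.5) and 12.2 in LC3 ChIP (-4.51 to 29.0). It was -7.95 points in EBSS evDNA (-16.3 to 0.413) and 0.666 in control evDNA (-3.64 to 4.97), so each interval included 0. The genes numbered 18 in FOXM1 ChIP, 32 in LC3 ChIP, 134 in EBSS evDNA and 310 in control evDNA. With a protein-coding nearest gene, the flank share was 10.3% in FOXM1 ChIP, 10.6% in LC3 ChIP, 12.3% in EBSS evDNA and 10.8% in control evDNA, FOXM1 ChIP minus LC3 ChIP was -0.341 points, the genes numbered 366 in FOXM1 ChIP, 404 in LC3 ChIP, 729 in EBSS evDNA and 1129 in control evDNA, and 19.8% of them in LC3 ChIP and 12.7% in control evDNA had a peak within 1 kb. With every list cut to 7801 peaks, the flank share of control evDNA was 8.06%, the overlap was 4.41% in LC3 ChIP, 12.0% in EBSS evDNA and 15.6% in control evDNA, and EBSS evDNA flank minus other peaks was -1.92 points. With −log10 p of at least 3, the overlap of EBSS evDNA was 12.0% and LC3 ChIP flank minus other peaks was 2.32 points (0.0992 to 4.53). With an overlap of 50% of the shorter peak, FOXM1 ChIP had 2.46%. The share of flank peaks past the threshold was 5.17% in FOXM1 ChIP, 19.1% in LC3 ChIP, 23.2% in EBSS evDNA and 51.0% in control evDNA at q of at most 0.2, and 0.861% in FOXM1 ChIP, 0.267% in LC3 ChIP, 1.67% in EBSS evDNA and 1.58% in control evDNA at −log10 q of at least 5. An alternative added after the data were seen kept only flank peaks at the RefSeq 5' end of protein-coding genes. With it the upstream share was 51.8% in FOXM1 ChIP, 36.8% in LC3 ChIP and 53.7% in control evDNA, and FOXM1 ChIP minus LC3 ChIP was 15.0 points.

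No paired analysis was possible because each group had 1 library. For the same reason intervals cover counting error only, and library and condition cannot be told apart. What depth limits in each list was not tested, and near-identical copies limit where reads can be placed.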

Other observations

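Flank peaks were rarer on chromosome 5 than the other peaks of their lists. In FOXM1 ChIP 6.89% of flank peaks and 9.87% of other peaks were on it (difference -2.98 points, -4.82 to -1.15). In LC3 ChIP the shares were 6.68% and 8.59% (difference -1.91, -3.81 to -0.00199), in EBSS evDNA 8.36% and 12.0% (-3.63, -5.13 to -2.13), and in control evDNA 11.3% and 15.3% (-3.97, -5.29 to -2.64). Control evDNA thus had the highest share on this chromosome in both classes. Only chromosome 5 is given here, so the lower flank share is not shown to be particular to it. Flank peaks lie near transcript starts by the rule, and how starts are spread over chromosomes was not taken into account.

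Gene families, chosen after the values were seen, are given as a share of flank peaks and of all peaks. Genes named DUX4 or DUX4-like, which are near-identical tandem copies, had 0.369% of flank peaks and 0.107% of all peaks in FOXM1 ChIP, 0.267% and 0.0769% in LC3 ChIP, 0.602% and 0.221% in EBSS evDNA, and 0.406% and 0.155% in control evDNA. These shares rest on 3 flank peaks in FOXM1 ChIP, 2 in LC3 ChIP, 9 in EBSS evDNA and 10 in control evDNA. Olfactory receptor genes, which encode odorant receptors in large clusters, had 2.46% of flank peaks and 1.07% of all peaks in FOXM1 ChIP, 1.34% and 0.820% in LC3 ChIP, 1.20% and 0.844% in EBSS evDNA, and 1.18% and 0.900% in control evDNA. These were 20 flank peaks in FOXM1 ChIP, 10 in LC3 ChIP, 18 in EBSS evDNA and 29 in control evDNA. Only 3, all in control evDNA, had q of at most 0.05. In FOXM1 ChIP, 47.7% of flank peaks and 32.5% of other peaks were nearest to a protein-coding gene, which these shares do not take into account. Copies of U6, a spliceosomal RNA, had 1.60% of flank peaks and 2.33% of all peaks in FOXM1 ChIP, 1.07% and 1.08% in LC3 ChIP, 1.47% and 1.77% in EBSS evDNA, and 1.50% and 1.93% in control evDNA.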
